A study of Mus musculus with 18 samples.

Results

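The mitochondrial ribosomal protein genes described here are the rows of the deposited mouse heart table whose symbol starts with Mrpl or Mrps, followed by a number and at most 1 letter. The rule found 78 of 25731 symbols, 49 named Mrpl and 29 named Mrps. Hearts were taken at day 7 from adult wild-type C57BL/6 mice of about 20 g, all labelled male. The 3 groups of 6 were ischemia-reperfusion with decursin (IR+Decursin), ischemia-reperfusion alone (IR) and sham surgery (SHAM). Decursin is a coumarin compound of Angelica root, and ischemia-reperfusion closes and reopens a coronary artery. The sources used here do not state its dose or timing, how long the artery was closed or which region of the heart was sampled. Each library is 1 heart. The 3 batch names in the labels hold 1 group each, and so the batch cannot be told apart from the group throughout.

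Mitochondria translate the few proteins encoded by their own DNA, all of them subunits of the respiratory chain or ATP synthase, on a ribosome of their own. Its RNAs come from mitochondrial DNA, whereas every protein of its large subunit (Mrpl) and small subunit (Mrps) is encoded in the nucleus, made in the cytosol and imported. Part of these proteins descend from those of the bacterial ribosome and part were added in mitochondria, and the heart, which depends on oxidative phosphorylation, is among the tissues affected in people with inherited defects of several of them. By present assignment, 51 of the 78 genes encode large-subunit proteins and 26 encode small-subunit proteins, since Mrps30 and Mrps18a belong to the large subunit despite their names. Mrps36 is now assigned to the 2-oxoglutarate dehydrogenase complex of the citric acid cycle rather than to the ribosome, and was kept because its symbol meets the rule.

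Promoters are shown for 5 members that the results below turn on: Mrpl42 and Mrps9, among the 6 largest falls in IR, Mrpl3, which is among these 6 and whose protein is tied to cardiomyopathy in people, Mrpl12, with the highest fold change between IR+Decursin and IR, and Mrpl52, the single member with a positive fold change in IR. Each line gives the 250 bases before the annotated start, 5′ to 3′ on the gene's strand, from the RefSeq table of build GRCm38.p6. Capitals mark the letters of the first motif named after the coordinates.

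Mrpl42: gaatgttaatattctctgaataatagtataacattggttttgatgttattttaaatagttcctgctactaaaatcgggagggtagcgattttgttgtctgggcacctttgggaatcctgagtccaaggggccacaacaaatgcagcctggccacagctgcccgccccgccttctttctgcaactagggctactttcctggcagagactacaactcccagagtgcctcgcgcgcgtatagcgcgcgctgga

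Mrps9: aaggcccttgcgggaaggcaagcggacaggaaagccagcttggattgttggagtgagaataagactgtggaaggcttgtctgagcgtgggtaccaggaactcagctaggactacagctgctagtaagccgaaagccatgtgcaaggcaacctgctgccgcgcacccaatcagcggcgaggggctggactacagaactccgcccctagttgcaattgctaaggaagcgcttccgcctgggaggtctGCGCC

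Mrpl3: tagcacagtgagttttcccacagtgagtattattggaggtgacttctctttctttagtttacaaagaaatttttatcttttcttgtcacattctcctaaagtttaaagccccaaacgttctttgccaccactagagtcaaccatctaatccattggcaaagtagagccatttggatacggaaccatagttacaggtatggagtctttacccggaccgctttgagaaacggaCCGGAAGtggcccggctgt

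Mrpl12: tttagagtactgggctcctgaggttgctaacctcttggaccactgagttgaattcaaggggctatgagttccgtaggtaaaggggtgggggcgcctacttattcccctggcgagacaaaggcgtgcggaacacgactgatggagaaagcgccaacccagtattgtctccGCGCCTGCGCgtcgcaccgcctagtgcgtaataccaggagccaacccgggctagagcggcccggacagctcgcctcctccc

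Mrpl52: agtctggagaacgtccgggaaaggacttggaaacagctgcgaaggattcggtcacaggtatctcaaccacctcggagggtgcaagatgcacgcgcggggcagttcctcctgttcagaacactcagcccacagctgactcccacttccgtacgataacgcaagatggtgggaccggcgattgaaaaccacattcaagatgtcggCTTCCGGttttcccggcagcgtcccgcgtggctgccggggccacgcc

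The Mrpl42 window lies at chr10:95501950-95502199, minus strand, and holds no capitals because its YY1 motif falls after the start. The Mrps9 window lies at chr1:42850983-42851232, plus strand, and its NRF1 motif begins 5 bases before the start, so that only its first 5 bases are printed. The Mrpl3 window lies at chr9:105053018-105053267, plus strand, with an ETS motif, the letters bound by GABP, from position -19. The Mrpl12 window lies at chr11:120484387-120484636, plus strand, with an NRF1 motif from position -81. The Mrpl52 window lies at chr14:54426659-54426908, plus strand, with an ETS motif on the other strand from position -47. Positions count from 0 at the start, and bases before it are negative. GC boxes of SP and KLF factors on the other strand, from position -90 in Mrpl42 and -53 in Mrps9, are left in lower case. After the start, and so not printed, lie an estrogen-related receptor motif in Mrpl12 (33) and another ETS motif in Mrpl52 (2). The YY1 motifs of Mrpl42 and of Mrpl37, the members with the largest falls in IR, begin at positions 27 and 26 and are shown in 30 bases each.

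Mrpl42, YY1 motif: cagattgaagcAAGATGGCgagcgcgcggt

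Mrpl37, YY1 motif: ctgcacgggcaAAGATGGCggcgtccaggt

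These stretches lie at chr10:95501904-95501933, minus strand, and at chr4:107066822-107066851, minus strand. A set of 5 short motifs was searched on both strands in the 300 bases from 250 before to 50 after the start, a window found for 69 of the 78 members and for 11753 genes tested. The letters GCGC and TGCGC with any 1 base between them, for the respiratory gene regulator NRF1, were in 18.8% of the members' windows and in 9.35% of those of all genes tested. CCGGAAG, for ETS factors such as GABP, was in 36.2% of the members' windows and 16.7% of all. AAGATGGC, for YY1, was in 17.4% of the members' windows and 4.33% of all. AAGGTCA, bound by the estrogen-related receptors that drive cardiac energy genes, was in 5.80% of the members' windows and 3.25% of all. GGGCGG, the GC box of SP and KLF factors, was in 49.3% of the members' windows and 61.1% of all. A match of letters does not show that a factor binds there. The median log2 fold change between IR and SHAM was -0.60 in the 13 members with the NRF1 motif and -0.59 in the 56 without, -0.56 in the 25 with the ETS motif and -0.61 in the 44 without, and -0.60 in the 12 with the YY1 motif and -0.59 in the 57 without. It was -0.52 in the 4 with the estrogen-related receptor motif and -0.59 in the 65 without, and -0.56 in the 34 with the GC box and -0.61 in the 35 without.

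Libraries held 27.5 to 34.97 M counts. All 78 members passed the filter on low counts, as did 15088 genes in all, and the smallest count of a member in any library was 337. The male label did not hold for 3 libraries: IR+Decursin 2, IR 3 and IR 4 had 14072 to 14232 counts of Xist, the RNA of the inactive X chromosome, against 0 to 8 in the other 15. IR+Decursin 6 stood apart from its group, with 7.54% of its counts on the gene model Gm26917 and with marker levels near those of SHAM. Counts of members are therefore given with and without these libraries. Of the 20 cardiomyocyte markers, which include Myh6, Tnnt2 and Ttn, none was at or under 3 counts per library in any group.

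The members differed widely in level. In FPKM, the deposited unit that divides by gene length, they ran from 3.74 (Mrps10) to 367 (Mrpl42) in IR+Decursin hearts, from 3.91 to 308 in IR hearts and from 3.66 to 459 in SHAM hearts, with the same genes at both ends. The median member stood at 26.6 FPKM in IR+Decursin, 23.8 FPKM in IR and 28.6 FPKM in SHAM hearts. Mrpl12 averaged 140, 107 and 146 FPKM in IR+Decursin, IR and SHAM hearts, and Mrps21, the highest of the small subunit, 127, 130 and 150 FPKM. The highest member exceeded the lowest by a factor of 98.1 in IR+Decursin, 78.9 in IR and 125 in SHAM hearts. Together the members took 0.378 ± 0.031% of counts in IR+Decursin, 0.339 ± 0.012% in IR and 0.420 ± 0.017% in SHAM libraries (mean ± SD, n = 6 each).

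In IR hearts, transcripts for nearly the whole mitochondrial ribosome were lower than in SHAM hearts, in both subunits and by similar amounts. Levels are CPM, each library's counts scaled to a common total with TMM factors, and edgeR's quasi-likelihood test with Benjamini-Hochberg adjustment over all 15088 genes called a change at an adjusted p under 0.05. Of the 78 members, 74 fell and 0 rose, where 21.7% of all genes tested fell and 25.3% rose. The median log2 fold change of the members was -0.59, against -0.00 over all genes tested. In 67 of the 78, every IR library lay below every SHAM library, where this held for 11.6% of all genes, and in 0 members was every IR library above, against 15.4% of all genes. In RNA of heart tissue, fewer cells of a type and less RNA per cell cannot be told apart.

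Of the large subunit, 48 of 51 members fell (median log2 fold change -0.60), and of the small subunit 25 of 26 (median -0.56). Members with bacterial homologues and members added in mitochondria are both represented: 28 of 30 and 19 of 20 fell in the large subunit, with medians of -0.63 and -0.58, and 15 of 16 and 9 of 9 in the small subunit, with medians of -0.54 and -0.61. The summed CPM of small-subunit proteins divided by that of large-subunit proteins was 0.363 to 0.383 in IR+Decursin, 0.368 to 0.397 in IR and 0.372 to 0.380 in SHAM libraries, so that the ranges overlapped.

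The 6 largest falls came from both subunits. Mrpl42, a large-subunit protein without a bacterial counterpart and the member with the highest level, had 164, 188 and 233 CPM (lowest, median and highest library) in IR hearts, against 322, 356 and 388 CPM in SHAM hearts. No IR library reached the lowest SHAM library, and the log2 fold change was -0.87 ± 0.11 (SE, adjusted p = 7.89e-06). Mrpl37, also added to the large subunit in mitochondria, had 33.2, 38.5 and 44.6 CPM in IR and 64.3, 68.3 and 72.6 CPM in SHAM hearts. Its groups lay apart as well, with a log2 fold change of -0.82 ± 0.09 (adjusted p = 3.76e-06).

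Mrpl2, whose bacterial homologue lies beside the centre where peptide bonds form, had 33.4, 36.3 and 48.2 CPM in IR and 60.8, 65.4 and 73.4 CPM in SHAM hearts (-0.79 ± 0.13). Mrps9, a small-subunit protein whose bacterial homologue contacts the tRNA in the peptidyl site, had 44.4, 50.2 and 62.2 CPM in IR and 82.0, 89.9 and 93.6 CPM in SHAM hearts (-0.78 ± 0.10). In both genes every IR library was under every SHAM library. Mrpl55, another protein of the large subunit, had 36.7, 44.2 and 56.2 CPM in IR and 68.6, 75.4 and 85.9 CPM in SHAM hearts (-0.78 ± 0.13). Mrpl3, whose bacterial homologue starts assembly of the large subunit, had 53.9, 59.9 and 65.3 CPM in IR and 75.2, 105 and 113 CPM in SHAM hearts (-0.76 ± 0.10). The groups of these genes did not overlap either, although for Mrpl3 the lowest SHAM library, SHAM 6, stood far below the other 5.

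**Figure D1:**
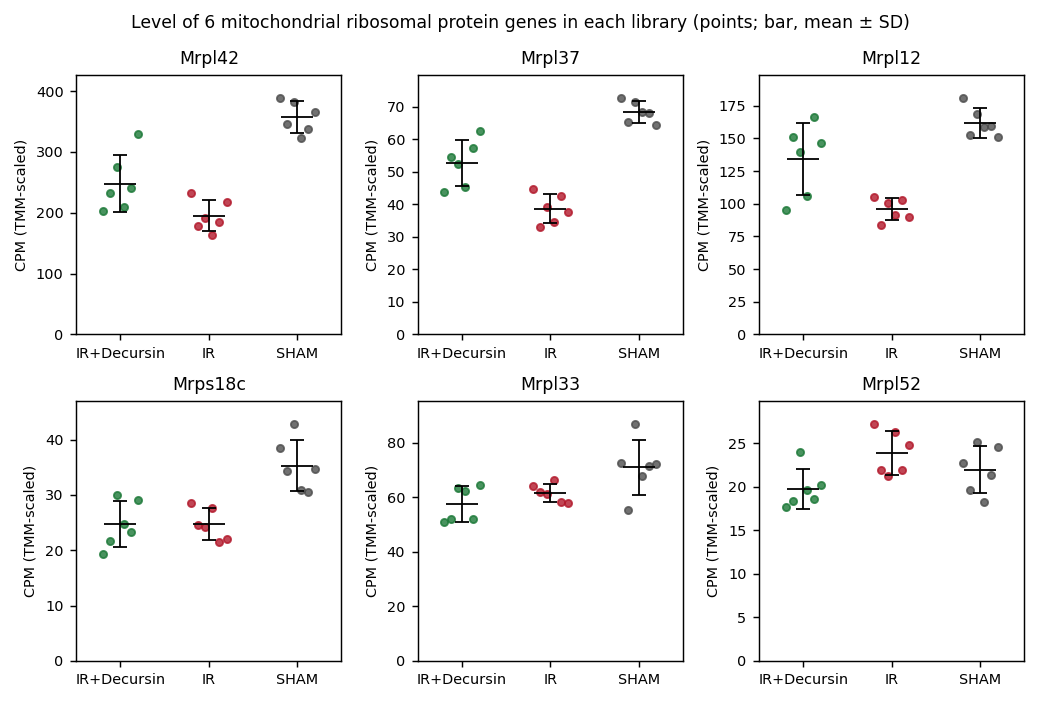
CPM with TMM scaling (vertical axis, from 0) of 6 members in each of the 6 libraries of IR+Decursin, IR and SHAM (points; bars give mean ± SD). Mrpl42, Mrpl37, Mrpl12 and Mrps18c lie lower in every IR library than in any SHAM library, while Mrpl33 and Mrpl52 overlap.

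The stalk of the large subunit, which recruits the factors of translation, fell in IR in all 3 of its members. Mrpl12, which also binds the mitochondrial RNA polymerase, averaged 95.7 ± 8.38 CPM in IR and 162 ± 11.2 CPM in SHAM hearts (log2 fold change -0.76 ± 0.11, adjusted p = 2.35e-05). Mrpl10, which anchors it, and Mrpl11 at the base both changed by -0.55 ± 0.10. Mrpl45, which holds the exit of the ribosome at the inner membrane, changed by -0.61 ± 0.08 (adjusted p = 1.35e-05).

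A set of 4 members is known from people with inherited defects of mitochondrial translation that include cardiomyopathy. Mrpl3 is given above. Mrpl44 averaged 36.4 ± 4.36 CPM in IR and 58.2 ± 3.81 CPM in SHAM hearts (-0.68 ± 0.10), Mrps22 15.8 ± 1.65 and 25.5 ± 2.52 CPM (-0.69 ± 0.09), and Mrps14 40.3 ± 3.37 and 59.8 ± 6.69 CPM (-0.57 ± 0.09). In each, all 6 IR libraries lay below all SHAM libraries.

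The 3 mammalian relatives of bacterial ribosomal protein S18 occupy different places in the ribosome, and all fell: Mrps18a by 0.59 ± 0.09, Mrps18b by 0.54 ± 0.10 and Mrps18c by 0.51 ± 0.11 on the log2 scale. Mrps30, the other large-subunit protein with a small-subunit name, fell by 0.68 ± 0.09 (adjusted p = 7.56e-06). Mrps36, which no longer counts as ribosomal, fell by 0.63 ± 0.10, within the range of the ribosomal members. Mrps12, at the site where codons are read, changed by -0.53 ± 0.12 and Mrps6, also of the small subunit, by -0.50 ± 0.10.

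In IR, 4 members were not called. Mrpl33 had 58.0, 61.6 and 66.2 CPM in IR and 55.4, 72.0 and 86.7 CPM in SHAM hearts (-0.21 ± 0.09, adjusted p = 0.0697), and all IR libraries lay inside the SHAM range. Mrpl17 had -0.20 ± 0.09 (adjusted p = 0.0755) and Mrps10 -0.21 ± 0.10 (adjusted p = 0.0887). These p-values do not show that the levels were equal. Mrpl52 was the one member with a positive value: it had 21.2, 23.4 and 27.1 CPM in IR and 18.3, 22.0 and 25.1 CPM in SHAM hearts, with 2 IR libraries above all SHAM libraries (0.12 ± 0.10, adjusted p = 0.306). In the GENCODE M21 annotation, the next gene downstream of Mrpl52 on the same strand is Mmp14, a matrix protease gene, at a distance of 1856 bases, and its log2 fold change was 3.25. Members that fell have such neighbours too: Csf3r lies 2485 bases upstream of Mrps15 on the same strand (3.03). Ska3 lies 49 bases upstream of Mrpl57 on the opposite strand (3.52). The part of Mmp14 in the Mrpl52 counts was not tested. Of the 78 members, 26 overlap another protein-coding gene in that annotation, 23 of them one on the opposite strand, and whether the counting used strand is not stated in the sources.

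The size of the change depended on how libraries were scaled. With library totals alone, the median of all genes tested was 0.31 on the log2 scale in IR against SHAM, and the members' median was -0.28. The distance between both medians was -0.59 with TMM factors and -0.59 with totals. A scaling factor shifts all genes of a library alike, so this distance stays nearly the same by construction and does not test the fall. With totals, 54 members were called lower and 1 higher, where 7% of all genes were lower and 46.5% higher, and every IR library lay below every SHAM library in 31 members (3.11% of all genes). In 1 member every IR library lay above, against 28% of all genes. The higher member was Mrpl52 (0.43 ± 0.10, adjusted p = 0.00183). Of the other members not called with TMM factors, Mrpl33, Mrpl17 and Mrps10 had values above 0 with totals, and the remaining 74 stayed below 0. Of the 74 calls, 20 were lost with totals (adjusted p from 0.0637 to 0.931), among them those of Mrps18c, Mrps12 and Mrps6 described above (adjusted p = 0.114, 0.112 and 0.0899). With totals taken without the 13 mitochondrially encoded genes, a setting chosen after seeing the data, 69 members were lower and 1 higher, where 12.1% of all genes were lower and 34.9% higher. The deposited FPKM, which use totals too, gave 55 members lower and 1 higher by limma on log2(FPKM + 1), where 7.22% of all genes were lower and 45.7% higher. With log2(FPKM + 0.1) the shares of all genes were 7.24% and 46%, and where the mean had to reach 1 FPKM they were 8.9% and 49.1%.

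**Figure D2:**
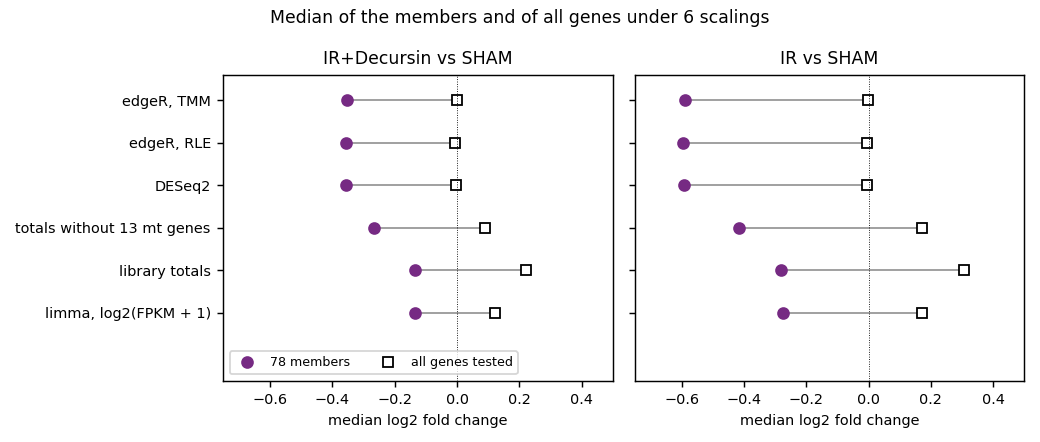
Median log2 fold change (horizontal axis) of the 78 members (filled circles) and of all genes tested (open squares) under 6 ways of scaling, for IR+Decursin against SHAM and IR against SHAM. The members' median lies left of that of all genes in every row, at -0.59 with TMM factors and -0.28 with library totals for IR against SHAM. Scaling factors shift all genes of a library alike, so rows that differ only in them keep nearly the same distance.

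Without the 3 libraries that held Xist counts, 74 members fell in IR and 0 rose, with a median of -0.56, where 16.9% of all genes fell and 21% rose. Leaving out any 1 library gave 74 to 76 members lower, where 19.8% to 23.3% of all genes were lower, and 0 higher, where 23.4% to 25.5% were.

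The remaining machinery of mitochondrial translation is given from lists of other gene symbols. These lists and those below use TMM factors unless totals are named. Library totals, which put the median of all genes tested at 0.31, would make falls in them smaller. All 5 ribosomal proteins with other names fell in IR, among them Dap3 (-0.64 ± 0.07) and Ptcd3 (-0.82 ± 0.10). Of 23 factors that assemble the mitochondrial ribosome, 23 fell, with a median of -0.52, such as Mrm3, which methylates the large ribosomal RNA (-0.87 ± 0.12), and Fastkd2, which binds that RNA (-0.68 ± 0.09). Of 15 translation factors, 14 fell (median -0.66). Among them were Mtif2, the initiation factor (-0.84 ± 0.08), and Taco1, the activator of COX1 translation (-0.99 ± 0.12), and the one not called was Mtfmt (-0.23).

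Transcripts of the proteins encoded by mitochondrial DNA and of their nuclear partners were mostly lower as well. Protein was not measured. Of the 13 protein genes of mitochondrial DNA, 11 fell (median -0.71), and of 60 nuclear genes of oxidative phosphorylation all 60 fell (median -0.68), for example Atp5g1 (-1.08 ± 0.14) and Uqcrfs1 (-0.89 ± 0.11). The cytosolic ribosome did not share the direction, with a median of 0.18. Of its 78 tested genes 38 rose and 3 fell, where 25.3% of all genes rose and 21.7% fell. Rpl3 rose most (0.97 ± 0.11) and Rpl3l, its form in striated muscle, fell most (-1.18 ± 0.15). With library totals the cytosolic median was 0.49 and 73 rose, where the median of all genes was 0.31 and 46.5% of them rose. Without the 3 Xist libraries 16 rose and 1 fell, where 21% of all genes rose and 16.9% fell. No test set these lists against the members.

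Markers of cell types changed too: those of cardiomyocytes mostly fell with the members, and those of macrophages and fibroblasts rose. Of 20 cardiomyocyte markers 19 fell (median -0.62), and their summed level was 55065 to 75823 CPM in IR and 100339 to 115557 CPM in SHAM libraries. Of 18 macrophage markers all 18 rose (median 2.12), with sums of 1841 to 4164 CPM in IR and 525 to 724 CPM in SHAM libraries. Of 14 fibroblast markers all 14 rose (median 1.54), with sums of 10131 to 15143 CPM in IR and 1786 to 2190 CPM in SHAM libraries. Of 12 endothelial markers 2 fell and 0 rose (median -0.18), and of 10 smooth muscle and pericyte markers 4 fell and 0 rose (median -0.02). None of these markers was at or under 3 counts in all libraries of a group. These marker values use TMM factors and are not given with library totals. The part of the changed cell make-up in the members' fall was not tested.

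IR+Decursin hearts lay between IR and SHAM hearts on average, and varied more. The median deviation of the 78 members from the SHAM mean was taken in each library on the log2 scale. It was -0.64, -0.34, -0.24, -0.49, -0.26 and -0.12 in IR+Decursin 1 to 6, and -0.43, -0.68, -0.58, -0.68, -0.51 and -0.63 in IR 1 to 6, and between -0.09 and 0.10 in SHAM libraries. Thus IR+Decursin 1 and IR+Decursin 4 lay among the IR libraries and IR+Decursin 6 next to the SHAM range. The coefficient of variation of the median member was 14.8% in IR+Decursin, 10.4% in IR and 8.65% in SHAM libraries, against 17.4%, 15.5% and 13.4% for the median of all genes tested.

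**Figure D3:**
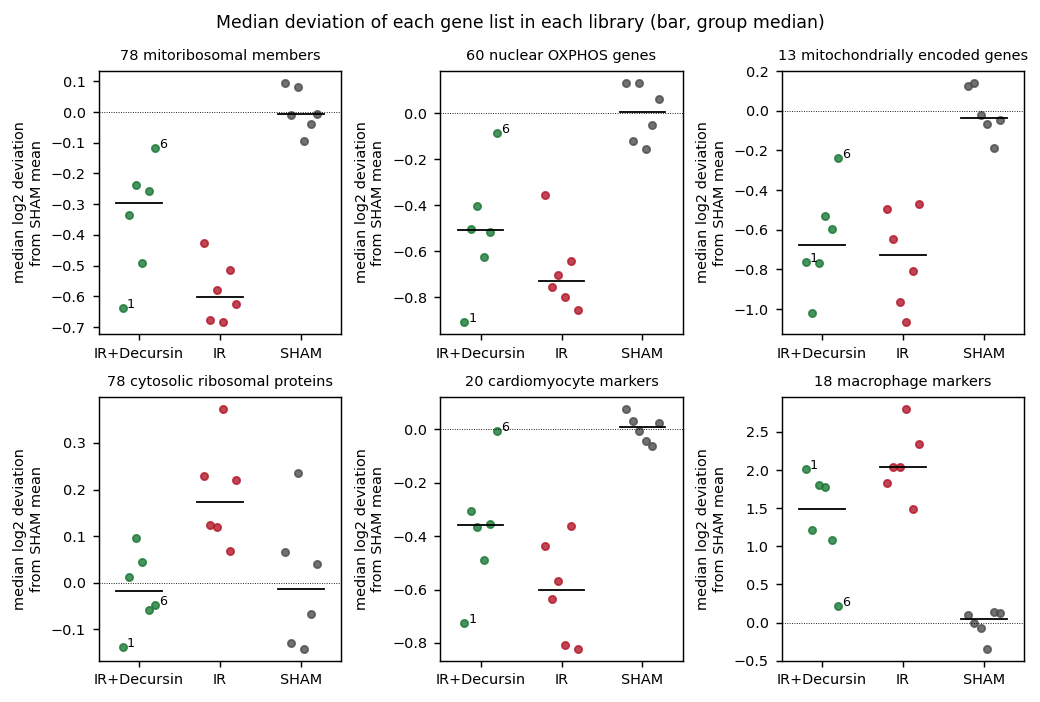
Median log2 deviation from the SHAM mean (vertical axis) in each library of IR+Decursin, IR and SHAM (points; bar, group median) for the members and 5 other gene lists, with IR+Decursin 1 and 6 numbered. The members, nuclear oxidative phosphorylation genes and cardiomyocyte markers are low in IR+Decursin 1 and close to SHAM in IR+Decursin 6, and macrophage markers run the other way.

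Within their group, IR+Decursin 1 and IR+Decursin 6 stood at the ends for the members and for the cardiomyocyte and macrophage markers. IR+Decursin 1 had medians of -0.72 for cardiomyocyte and 2.01 for macrophage markers, and IR+Decursin 6 had -0.01 and 0.22. Over the group, the summed macrophage markers ran from 742 to 2746 CPM in IR+Decursin and from 1841 to 4164 CPM in IR libraries, and the summed cardiomyocyte markers from 63032 to 104523 CPM and from 55065 to 75823 CPM. The part of these markers in the spread of the members was not tested.

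Set against IR, the members were mostly higher in IR+Decursin hearts, but no member passed the test. Fold changes were positive in 75 of 78 members, with a median of 0.23 against -0.02 over all genes tested. edgeR called 0 members in either direction, as it called 0% of all 15088 genes. At an unadjusted p under 0.05 there were 50 members and 2712 genes in all, counted in both directions. These 50 include Mrpl52, which was lower (-0.28). The smallest adjusted p of a member was 0.0883, shared by 6 members. DESeq2 called 18 members higher and 0 lower, where it called 2.48% of all genes higher and 0.636% lower. Without IR+Decursin 1, edgeR called 36 members higher, where 4.58% of all genes were, and 0 lower, where 1.84% were. The 18 members of the DESeq2 fit are all among these 36, which is 100% of the one list and 50% of the other. Both fits use the same counts apart from 1 library, so this overlap is not independent support. Leaving out any other single library gave 0, as did leaving out the 3 Xist libraries together, library totals and limma on FPKM. These fits called 0% of all genes too, except for 0.0132% higher without IR+Decursin 4. Without IR+Decursin 6, fold changes were positive in 70 members and negative in 8, with a median of 0.18.

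Mrpl37 had the smallest p: 43.8, 53.6 and 62.6 CPM in IR+Decursin hearts, against 33.2, 38.5 and 44.6 CPM in IR hearts. In 5 of 6 IR+Decursin libraries its level was above all IR libraries, and the log2 fold change was 0.45 ± 0.09 (adjusted p = 0.0883, DESeq2 0.00323, without IR+Decursin 1 0.00981). Mrps30 had 26.7, 29.1 and 36.9 CPM in IR+Decursin and 19.7, 23.8 and 25.2 CPM in IR hearts (0.41 ± 0.09, adjusted p = 0.0883), and its groups did not overlap. Such a gap held for Mrps30 and Mrps2, a small-subunit protein with a bacterial homologue, 2 of 78 members, where it held for 0.272% of all genes. The opposite gap held for 0 members and 0.245% of all genes. Mrpl19, whose bacterial homologue lies at the interface of the subunits, had 21.6, 27.2 and 31.8 CPM in IR+Decursin and 17.2, 21.0 and 21.7 CPM in IR hearts (0.44 ± 0.09, adjusted p = 0.0883). A single IR+Decursin library lay inside the IR range.

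The stalk protein gene Mrpl12 had the highest fold change of the members, 0.49 ± 0.11 (adjusted p = 0.0883). Its levels were 95.2, 143 and 166 CPM in IR+Decursin and 84.1, 96.0 and 105 CPM in IR hearts, with 5 of 6 IR+Decursin libraries above all IR libraries. The other stalk members had 0.31 ± 0.10 (Mrpl10, adjusted p = 0.140) and 0.18 ± 0.10 (Mrpl11, adjusted p = 0.355), and Mrpl45 had 0.35 ± 0.08 (adjusted p = 0.0930). Of the members tied to cardiomyopathy, Mrpl3 had 0.32 ± 0.10, Mrpl44 0.31 ± 0.10, Mrps22 0.23 ± 0.09 and Mrps14 0.16 ± 0.09, none of them called. Without IR+Decursin 1, Mrpl12, Mrpl10, Mrpl45, Mrpl3 and Mrpl44 passed the threshold (adjusted p = 0.00893, 0.0290, 0.0199, 0.0277 and 0.0207).

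In IR+Decursin against IR, 3 members had values below 0. Mrpl52 had 17.7, 19.05 and 24.0 CPM in IR+Decursin and 21.2, 23.4 and 27.1 CPM in IR hearts (-0.28 ± 0.10, adjusted p = 0.157). Mrpl33 had -0.10 ± 0.09 (adjusted p = 0.584). Mrps18c averaged 24.7 ± 4.18 CPM in IR+Decursin and 24.7 ± 2.87 CPM in IR hearts (-0.00 ± 0.11, adjusted p = 0.987), while its relatives Mrps18a and Mrps18b had 0.31 ± 0.09 and 0.32 ± 0.10. With library totals every IR+Decursin library lay above every IR library in 3 members (0.219% of all genes), 11 members had values below 0, and the median of the members was 0.14 against -0.10 for all genes.

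**Figure D4:**
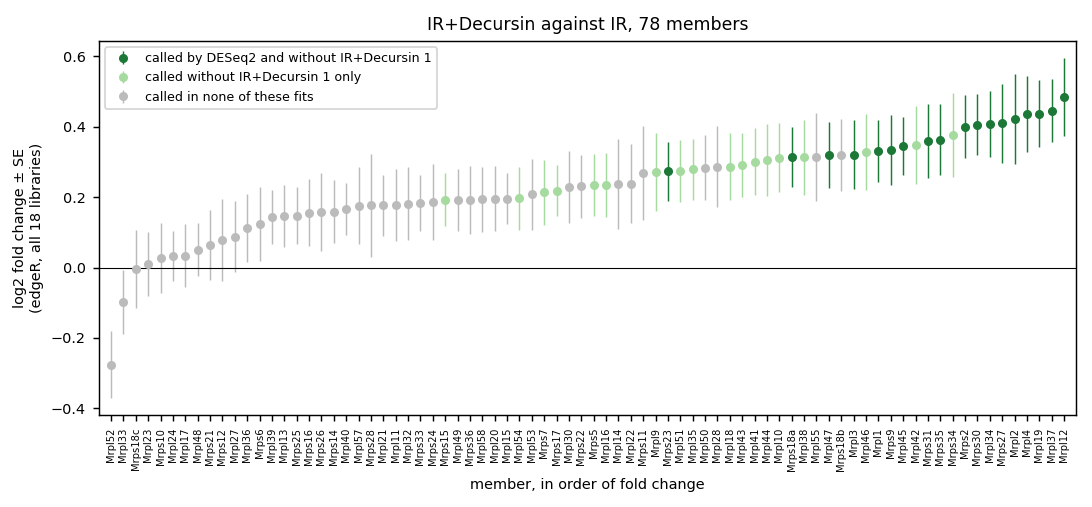
Log2 fold change ± SE (vertical axis) between IR+Decursin and IR for the 78 members in order of size, coloured by whether DESeq2 and the edgeR fit without IR+Decursin 1 called them. Values run from Mrpl52 (-0.28) to Mrpl12 (0.49), and 75 of 78 lie above 0, although edgeR with all 18 libraries called none.

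The wider machinery gave the same count. edgeR called 0 of 23 assembly factors (median 0.16), 0 of 15 translation factors (median 0.26), 0 of 60 nuclear oxidative phosphorylation genes (median 0.19) and 0 of 13 mitochondrially encoded genes (median 0.05). Cytosolic ribosomal protein genes had a median of -0.21 in this comparison, with 0 called. Cardiomyocyte markers had a median of 0.29 and macrophage markers of -0.73, again with 0 called in each list, so these differences did not pass the test either.

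Against SHAM, IR+Decursin hearts still had lower levels for most of the ribosome. This comparison shares the SHAM libraries with that of IR against SHAM. edgeR called 62 members lower and 0 higher, where 11.8% of all genes were lower and 17.5% higher, with a median log2 fold change of -0.35 against -0.00. All 78 values were below 0. In 20 members every IR+Decursin library lay below every SHAM library (2.9% of all genes), and in 0 every one lay above (4.44%). Of the large subunit 41 of 51 fell, and of the small subunit 20 of 26, with medians of -0.34 and -0.36.

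Mrps28 had the largest fall, with 20.7, 30.3 and 37.6 CPM in IR+Decursin and 34.4, 43.7 and 50.9 CPM in SHAM hearts (-0.54 ± 0.15, adjusted p = 0.0105). A single IR+Decursin library reached into the SHAM range. Mrpl42 followed with 202, 237 and 329 CPM in IR+Decursin and 322, 356 and 388 CPM in SHAM hearts (-0.53 ± 0.11, adjusted p = 0.00205), again with 1 library inside that range. Mrps18c had 19.4, 24.0 and 30.01 CPM in IR+Decursin and 30.6, 34.5 and 42.8 CPM in SHAM hearts, with no overlap (-0.52 ± 0.11, adjusted p = 0.00219). Its fold change between IR and SHAM was of the same size, -0.51 ± 0.11.

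Mrpl21 had 28.7, 38.0 and 40.6 CPM in IR+Decursin and 45.7, 50.8 and 52.3 CPM in SHAM hearts (-0.46 ± 0.09, adjusted p = 0.00094). Mrps25, a mitochondria-specific protein of the small subunit, had 20.6, 24.6 and 28.6 CPM in IR+Decursin and 29.7, 34.1 and 38.0 CPM in SHAM hearts (-0.46 ± 0.08, adjusted p = 0.000656). Neither gene's groups overlapped. Mrpl55, which completes the 6 largest falls, changed by -0.46 ± 0.13 (adjusted p = 0.0097).

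Other members were nearer to SHAM. Mrps34, a mitochondria-specific protein of the small subunit, had 27.8, 37.7 and 52.6 CPM in IR+Decursin and 32.6, 41.1 and 45.1 CPM in SHAM hearts, with 4 of 6 IR+Decursin libraries inside the SHAM range (-0.05 ± 0.12, adjusted p = 0.799). It was chosen for description after its values were seen, as the member closest to 0. Its fold change between IR and SHAM was -0.42 ± 0.12 (adjusted p = 0.00612), a call lost with library totals (-0.12, adjusted p = 0.433). That between IR+Decursin and IR, which tests the difference, was 0.38 ± 0.12 (adjusted p = 0.139). Mrpl12 had -0.27 ± 0.11 against SHAM (adjusted p = 0.0700, DESeq2 0.0465, without IR+Decursin 5 0.0232), and Mrpl10 had -0.24 ± 0.10 (adjusted p = 0.0719, without IR+Decursin 5 0.0203 and without IR+Decursin 6 0.0422). Mrpl45 fell by 0.27 ± 0.08 (adjusted p = 0.0211), a call lost without IR+Decursin 1 (0.0541) or without IR+Decursin 4 (0.0576). Mrps30 fell by 0.27 ± 0.09 (adjusted p = 0.0209), a call lost without IR+Decursin 1 (0.0532), without IR+Decursin 4 (0.0556) and without the 3 Xist libraries (0.0575).

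Mrpl33 was called here (-0.30 ± 0.09, adjusted p = 0.0168), with 50.9, 57.3 and 64.6 CPM in IR+Decursin and 55.4, 72.0 and 86.7 CPM in SHAM hearts, overlapping in 3 of 6 libraries. Mrpl52 (-0.15 ± 0.10), Mrpl17 (-0.16 ± 0.09) and Mrps10 (-0.18 ± 0.10) were not called in this comparison either (adjusted p = 0.242, 0.178 and 0.177). Of the stalk and cardiomyopathy members, Mrpl11, Mrpl3, Mrpl44, Mrps22 and Mrps14 fell, with values from -0.37 to -0.46.

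**Figure D5:**
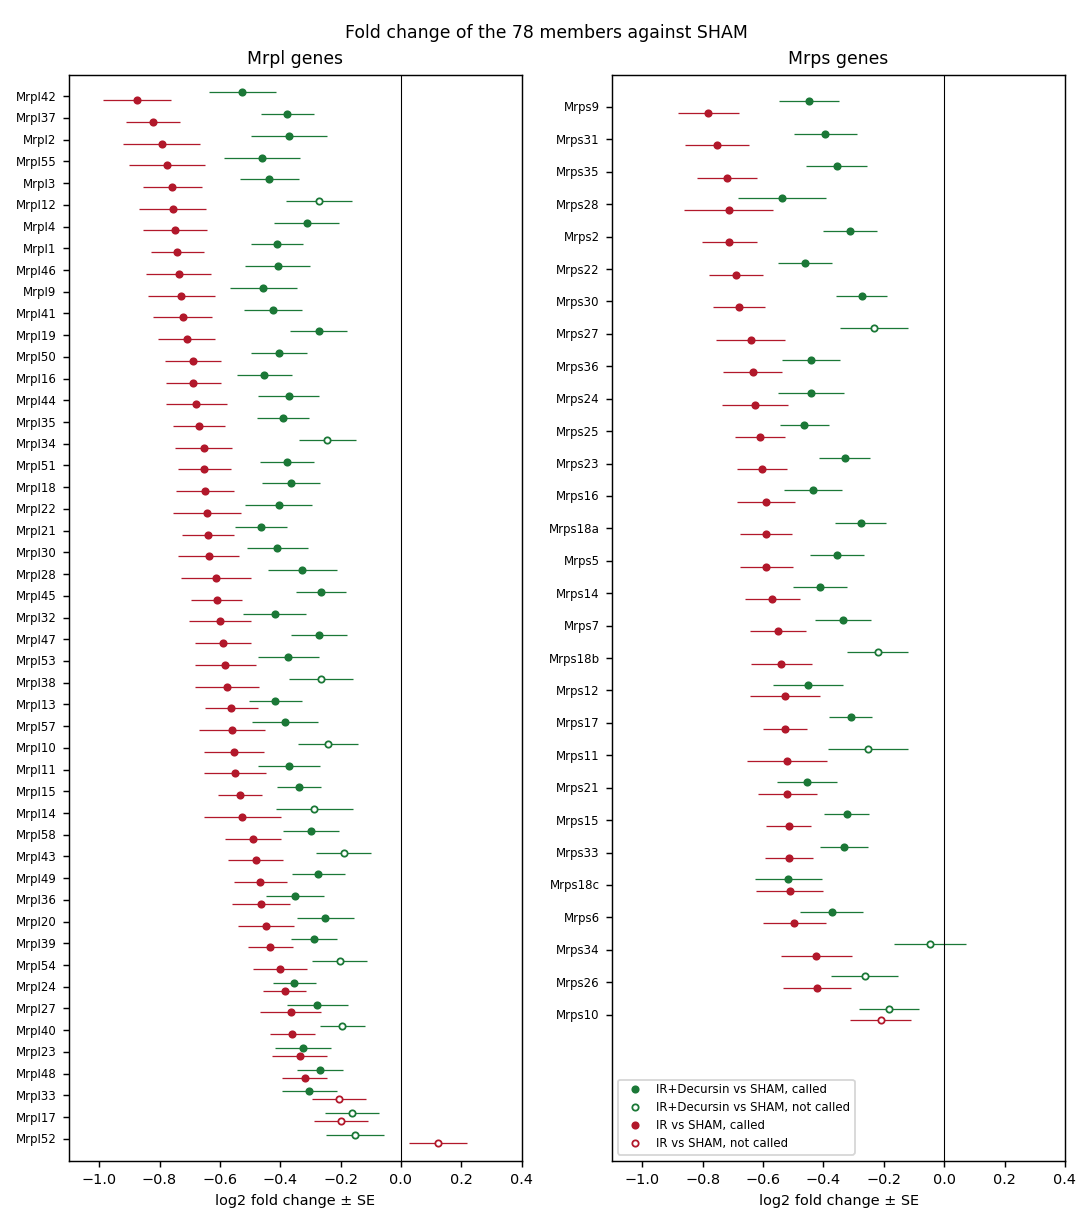
Log2 fold change ± SE (horizontal axis) of the 49 Mrpl and 29 Mrps genes for IR+Decursin against SHAM and IR against SHAM (filled, called at an adjusted p under 0.05; open, not called). The IR values reach -0.87 (Mrpl42), the IR+Decursin values -0.54 (Mrps28), and both sets share the SHAM libraries.

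Without the 3 Xist libraries 55 members were called lower against SHAM, where 8.9% of all genes were. Without IR+Decursin 1 the count was 51 (8.5% of all genes), and without IR+Decursin 6 it was 67 (14.1%). In these fits 0 members were called higher, where 15.4%, 14.3% and 19.5% of all genes were. With library totals the median of all genes was 0.22 and that of the members -0.13, and 14 members were called lower and 0 higher, where 2.5% of all genes were lower and 31.7% higher. With library totals 70 of the 78 values were below 0. In 2 members every IR+Decursin library lay below every SHAM library (0.742%). Of the 62 calls, 48 were lost with totals (adjusted p from 0.0506 to 0.794). Among the 6 largest falls Mrps28 lost its call (adjusted p = 0.0511), while Mrpl42, Mrps18c, Mrpl21, Mrps25 and Mrpl55 kept theirs. Mrpl33 lost it too (-0.09, adjusted p = 0.514), as did Mrpl11, Mrpl45, Mrps30, Mrpl3, Mrpl44, Mrps22 and Mrps14, and Mrps34 had a value above 0 (0.16, adjusted p = 0.309). The FPKM gave 15 members lower by limma with either pseudocount (2.62% of all genes with 1 and 2.56% with 0.1) and 17 where the mean had to reach 1 FPKM (3.29%). Totals without the mitochondrially encoded genes gave 50 lower and 0 higher, where 6.83% of all genes were lower and 20.5% higher. Assembly factors fell in 13 of 23, translation factors in 12 of 15, nuclear oxidative phosphorylation genes in 57 of 60 and mitochondrially encoded genes in 11 of 13, with TMM factors. Of the cardiomyocyte markers 9 of 20 fell, and of the macrophage markers all 18 rose, with sums of 742 to 2746 CPM in IR+Decursin and 525 to 724 CPM in SHAM libraries. Their part in the members' values was not tested.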

How the data were processed

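Total RNA of 18 hearts was sequenced, 6 in each group, and each library is a sample from a different mouse. The deposited table holds raw counts per gene symbol. The submitters' processing notes name fastp, HISAT2, HTSeq and the build GRCm39. Tool versions, the annotation and the strand setting are not given in the sources. The deposited FPKM equal these counts divided by the library total and 1 length per gene, as checked from the values. Library totals run from 27.5 to 34.97 M counts.

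Members and gene lists were chosen with earlier results of these data known. The count test was edgeR's (version 4.0.16, under R 4.3.3), with TMM factors, filterByExpr by group, 1 robust quasi-likelihood fit of all 18 libraries with 15 residual degrees of freedom, two-sided, with Benjamini-Hochberg adjustment over 15088 genes. Standard errors are the log2 fold change over the square root of F. Alternatives used DESeq2 1.42.0, limma 3.58.1 on log2(FPKM + 1), other scalings, a replicate block and each library left out. The procedure was also run on simulated data with as many rises as falls, so that run does not test the choice of scaling.

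Named per comparison are the 6 called members with the largest falls and rises or, with none called, the 3 with the smallest p in that direction, plus a panel by role. Sequences are from RefSeq tables of GRCm38.p6 and neighbours from GENCODE M21, a build other than that of the counts, so they give no position of the counted reads. Within groups, no pair of libraries was alike within counting noise (smallest chi-square per degree of freedom 15.3 over 45 pairs).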

Additional observations from a re-analysis of the deposited data

Results flagged for a closer look

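Mrpl3 in SHAM hearts was the single value, of 90 checks over the named members and groups, at which 1 library stood apart from the other 5. SHAM 6 had 75.2 CPM and the others 104 to 113 CPM, a gap of 0.753 of the range, above the 95% limit of 0.625 for 6 samples. Chance passes that limit in about 1 of 20 groups. Each IR library, at 53.9 to 65.3 CPM, was still below SHAM 6. The cause was not tested.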

How the results depend on the processing

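The calls of members lower in IR than in SHAM numbered 74 with RLE factors, DESeq2, no low-count filter, the replicate block and only the groups compared, where 11.4% to 22.9% of all genes were lower. With any 1 library left out they numbered 74 to 76 (19.8% to 23.3% of all genes; median -0.65 to -0.57). Scaling by totals changed more. With library totals, log2(FPKM + 1), log2(FPKM + 0.1) and log2(FPKM + 1) at a mean of at least 1 FPKM, 1 member was called higher in each, and the median was -0.28, -0.27, -0.28 and -0.27. With totals without mitochondrially encoded genes 1 was higher and the median was -0.42. In IR+Decursin against SHAM these first 4 settings called 14, 15, 15 and 17 members lower, with medians of -0.13, -0.13, -0.14 and -0.13, and Mrps18b changed sign with library totals (0.0012). Leaving out 1 library gave 51 to 67 lower (8.5% to 14.1% of all genes; median -0.39 to -0.29). In IR+Decursin against IR, DESeq2 called 18 members higher, and leaving out 1 library gave 0 to 36 (0% to 4.58% of all genes; median 0.18 to 0.29). There Mrps18c, near 0, ranged from -0.068 to 0.0569 with 1 library left out and was 0.0656 without the 3 Xist libraries. Mrps12 was -0.0204, -0.0201, -0.0210, -0.0201 and -0.0168 under the 5 settings based on totals. The cause of these changes was not tested. Replicate numbers did not pair the libraries: correlations of same-numbered deviations were 0.03 to 0.11 (IR, SHAM), -0.40 to 0.31 (IR+Decursin, IR) and -0.14 to 0.02 (IR+Decursin, SHAM), and 0, 2 and 0 of 6 libraries matched their own number best. With the replicate block 74 members were lower in IR (20.7% of all genes) and 61 in IR+Decursin (9.86%) than in SHAM, and 0 higher in IR+Decursin than in IR (0%). With 337 or more counts per member and library, no member was near the detection limit. The 6 hearts a group limit the precision.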
